A study of Mus musculus with 35 samples.

Results

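The genes described here are 10 imprinted genes with roles in growth: H19, Igf2, Igf2r, Dlk1, Meg3, Rian, Peg3, Mest, Grb10 and Plagl1. They were taken as a fixed list, matched by Ensembl identifier, and are 10 of the 54752 genes in the deposited tables. All 10 passed the filter on low counts. They were followed in 35 RNA-seq libraries of mouse embryonic fibroblasts given factors for the induction of pluripotency, in full or in part.

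The fibroblasts (MEFs) came from embryos at day 13.5, carried an Oct4-GFP allele from CBA/CaJ × C57BL/6J fathers, and were used at passage 2. The cells were infected with retroviruses for 48 hours and then kept in iCD3 medium with Rock inhibitor for up to 7 days. The JEGS group received Jdp2, Esrrb, Glis1 and Sall4 and was sampled on days 2, 4 and 6. Each of the 4 leave-out arms received 3 of these factors, and lacked Esrrb, Glis1, Jdp2 or Sall4. Each leave-out arm was sampled once a day from day 0 to day 7, which gives 8 libraries per arm. The mothers are named 129S12/SvJaeJ to 129S46/SvJaeJ, with a number that runs up from sample to sample. A treatment label gives all 4 factors to every sample, against the sample names, and the names were followed. Every arm is 1 culture series with 1 library per day, so p-values measure the spread between days of single series, which may be partly technical. The JEGS files carry the mark of a second repeat, so the JEGS arm and its batch cannot be told apart.

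Imprinted genes are transcribed mainly from the allele of 1 parent, under the control of DNA methylation laid down in the germ line. They lie in clusters: H19 and Igf2 share enhancers and an imprinting control region, and Dlk1, Meg3 and Rian share another. Paternally expressed members such as Igf2, Dlk1, Peg3, Mest and Plagl1 mostly promote growth or hold progenitors, while maternally expressed members such as H19, Igf2r and, outside neurons, Grb10 mostly restrain it. MEFs come from a growing embryo and hold many of these transcripts at high levels. Imprinting itself was not measured, since the tables do not separate the alleles.

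In the GENCODE M21 annotation of GRCm38 (mm10), H19 lies at chr7:142575529-142578143 and Igf2 at chr7:142650766-142666816, both on the minus strand. Dlk1 at chr12:109452823-109463336, Meg3 at chr12:109541001-109571726 and Rian at chr12:109603940-109661716 follow each other on the plus strand. Peg3 is at chr7:6703892-6730431, Igf2r at chr17:12682406-12769664, Grb10 at chr11:11930508-12038683, Mest at chr6:30723547-30748465 and Plagl1 at chr10:13060504-13131694. H19, Meg3 and Rian are noncoding and the other genes code for proteins.

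5 of the transcripts carry miRNAs, and 6 of these miRNAs are shown here because they lie inside transcripts whose levels are described below. Capitals mark the seed, bases 2 to 8 from the 5′ end, in RefSeq sequences of GRCm38.p6. The 2 forms of miR-675 lie in an exon of H19, miR-483 in an intron of Igf2, miR-770 in an exon of Meg3, miR-370 in an intron of Rian and miR-335 in an intron of Mest. No 2 of the 15 mature miRNAs of these hosts shared a seed. The mature miRNAs were not measured in these libraries.
mmu-miR-675-5p: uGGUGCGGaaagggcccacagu
mmu-miR-675-3p: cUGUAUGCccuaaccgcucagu
mmu-miR-483-3p: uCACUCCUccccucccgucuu
mmu-miR-770-5p: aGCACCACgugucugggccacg
mmu-miR-370-3p: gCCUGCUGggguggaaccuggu
mmu-miR-335-5p: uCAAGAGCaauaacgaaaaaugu

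Totals ran from 1266379 to 3608456 counts per library, with a median of 1973102. Of the factors left out, Glis1 reached at most 4.32 CPM, counts scaled for depth, in its arm, Sall4 9.8, Jdp2 42 and Esrrb 63 CPM in theirs. All 14 fibroblast markers were detected, and their summed level was 17597 to 29978 CPM on day 0 and 8486 to 10800 CPM on day 1. In such bulk samples, fewer cells of a type and less RNA per cell cannot be told apart. No pair of libraries held identical values.

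By the median over all libraries, H19 was the most abundant of the 10 transcripts, at 6526 TPM, and Igf2 followed at 2943 TPM. TPM, transcript abundance scaled for length and depth, is used here to compare levels between genes. H19 ran from 600.1 to 12787 TPM over the 35 libraries and Igf2 from 211 to 3739.9 TPM. The other members lay between 3.89 TPM, for Dlk1, and 661 TPM, also for Dlk1. Counts behind these values were 1864 to 46620 for H19 and 644 to 17236 for Igf2. The thinnest was the 7 counts of Dlk1 in 1 library without Sall4.

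**Figure D1:**
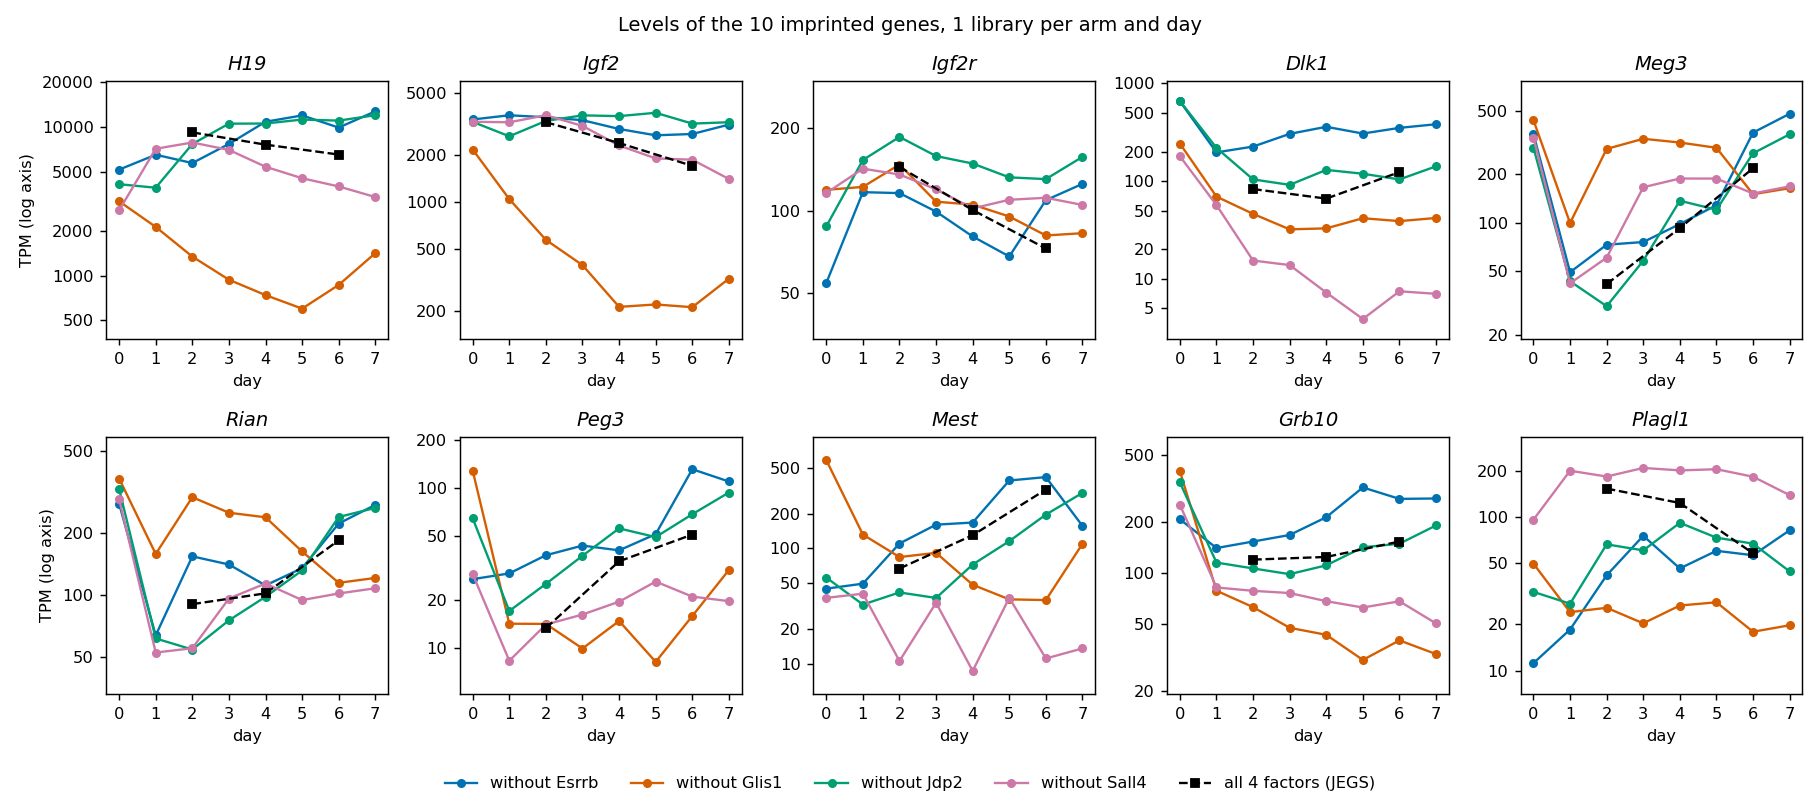
TPM of each gene (vertical log axis) by day (horizontal axis), 1 point per library, with lines joining the days of an arm and squares for the JEGS arm. H19 and Igf2 run lowest without Glis1, Dlk1 runs lowest and Plagl1 highest without Sall4, and Meg3 and Rian dip on day 1.

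A first test asked whether the 4 leave-out arms differed once day was taken into account. All 10 genes passed at an adjusted p under 0.05 in edgeR's quasi-likelihood test, while 62.9% of all 18135 genes tested passed. With 62.9% as the background, the count of members says little by itself. The size, the direction and the arm are what differed between the genes.

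H19 and Igf2 were lowest in the arm without Glis1. Igf2 encodes the fetal growth factor IGF-II, and H19 is the noncoding RNA beside it. Without Glis1, H19 was 600.1 TPM at its lowest, 1142 at the median and 3169 at its highest. The same 3 values were 5180.1, 8828 and 12787 TPM without Esrrb, 3912, 10575 and 12047 without Jdp2, and 2755, 4975 and 7887 without Sall4. Every library without Glis1 was below every library without Esrrb or Jdp2, and only the arm without Sall4 overlapped it.

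The fitted H19 level without Esrrb was 5.63-fold that without Glis1 (log2 2.49 ± 0.33 SE, adjusted p = 5.11e-07, edgeR). In that comparison 8 of the 10 genes and 43.2% of all genes were called. Without Glis1, H19 was lower than without Jdp2 by a log2 value of -2.57 ± 0.33, a comparison that called 9 members and 35.2% of all genes. Against the arm without Sall4 it was lower by -1.98 ± 0.32, where 7 members and 32.1% of all genes were called. Among the arms without Esrrb, Jdp2 and Sall4, no H19 difference passed, with log2 values from -0.08 to 0.59 and adjusted p from 0.144 to 0.898 in edgeR.

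Igf2 had the same order. It was 211, 357 and 2170.1 TPM (lowest, median and highest) without Glis1, against 2679.6, 3246 and 3605 without Esrrb, 2641, 3293 and 3739.9 without Jdp2, and 1404, 2692 and 3606 without Sall4. The 8 libraries without Glis1 were again all below those without Esrrb or Jdp2. The log2 difference was 2.54 ± 0.28 for the arm without Esrrb over the arm without Glis1, and -2.74 ± 0.28 and -2.34 ± 0.27 for the arm without Glis1 over those without Jdp2 and Sall4. The adjusted p-values in edgeR were 2.04e-08, 1.08e-08 and 1.22e-07.

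The low Igf2 level without Glis1 was reached over days, from a day 0 that was already the lowest of the 4 arms. Igf2 was 2170.1 TPM on day 0, then 1042, 570.2, 392, 211, 219, 211 and 321 TPM on days 1 to 7. Its slope in that arm was -0.38 ± 0.05 log2 per day (adjusted p = 1.45e-06, edgeR), and over days 1 to 7 alone it was -0.28. Slopes in this arm were called for 4 members and 7.87% of all genes. Without Sall4, Igf2 fell by 0.19 log2 per day (adjusted p = 0.024), from 3275 TPM on day 0 to 1404 on day 7, a call that was lost without the library of day 0, 1, 6 or 7 of that arm (adjusted p from 0.0529 to 0.106). In that arm 3 members and 9.3% of all genes had a called slope.

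H19 moved in different directions. It was 5180.1 TPM on day 0 and 12787 on day 7 without Esrrb, and 4132 and 12047 TPM without Jdp2. These slopes, 0.17 and 0.22 log2 per day, missed the threshold over all 8 days (adjusted p = 0.0718 and 0.0503) and passed over days 1 to 7, at 0.20 and 0.19. Without Glis1, H19 went from 3169 TPM on day 0 to 600.1 on day 5 and 1419 on day 7, with a slope of -0.19 ± 0.06 (adjusted p = 0.0406) that was lost over days 1 to 7 and without any 1 of 5 libraries of that arm. Without Sall4 it was 2755 TPM on day 0, 7887 on day 2 and 3385 on day 7, and its slope of -0.08 (adjusted p = 0.54) was -0.21 over days 1 to 7 (adjusted p = 0.0457). The slopes of H19 and of Igf2 differed between arms (adjusted p = 0.0069 and 0.000536, edgeR), in a test that called 7 members and 8.96% of all genes.

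The ratio of H19 to Igf2 in TPM separated the arms less than either gene did. Its median was 2.57 without Glis1, 2.97 without Esrrb, 2.95 without Jdp2 and 2.24 without Sall4. Over the 32 leave-out libraries H19 and Igf2 correlated with r = 0.920 and rho = 0.765, libraries that share arms and days. Within arms r was 0.953 without Glis1, 0.710 without Jdp2 and 0.555 without Sall4, but -0.583 without Esrrb.

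Igf2r encodes the receptor that takes IGF-II to lysosomes and clears it. By the ratio of highest to lowest TPM it varied least of the 10 genes, from 54.5 to 186 TPM. The median was 104 TPM without Esrrb, 107 without Glis1, 114 without Sall4 and 151 without Jdp2. It was lower without Esrrb than without Jdp2 (log2 -0.67 ± 0.11, adjusted p = 3.07e-05, edgeR), one of 2 members called there against 22% of all genes. It was also lower without Esrrb than without Sall4 (-0.56 ± 0.11) and Glis1 (-0.39 ± 0.11). No library without Esrrb reached the lowest CPM value without Sall4. In TPM those arms overlapped, with up to 125 without Esrrb and a lowest value of 102 without Sall4. The difference of -0.28 between the arms without Glis1 and Jdp2 (adjusted p = 0.0436) was lost when any 1 of 20 libraries was left out.

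The ratio of Igf2 to Igf2r in TPM without Glis1 was 18.2 on day 0 and 2.01 at its lowest, with a median of 3.75. The median was 32.3 without Esrrb, 23.3 without Jdp2, 22.7 without Sall4 and 23.4 in JEGS.

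**Figure D2:**
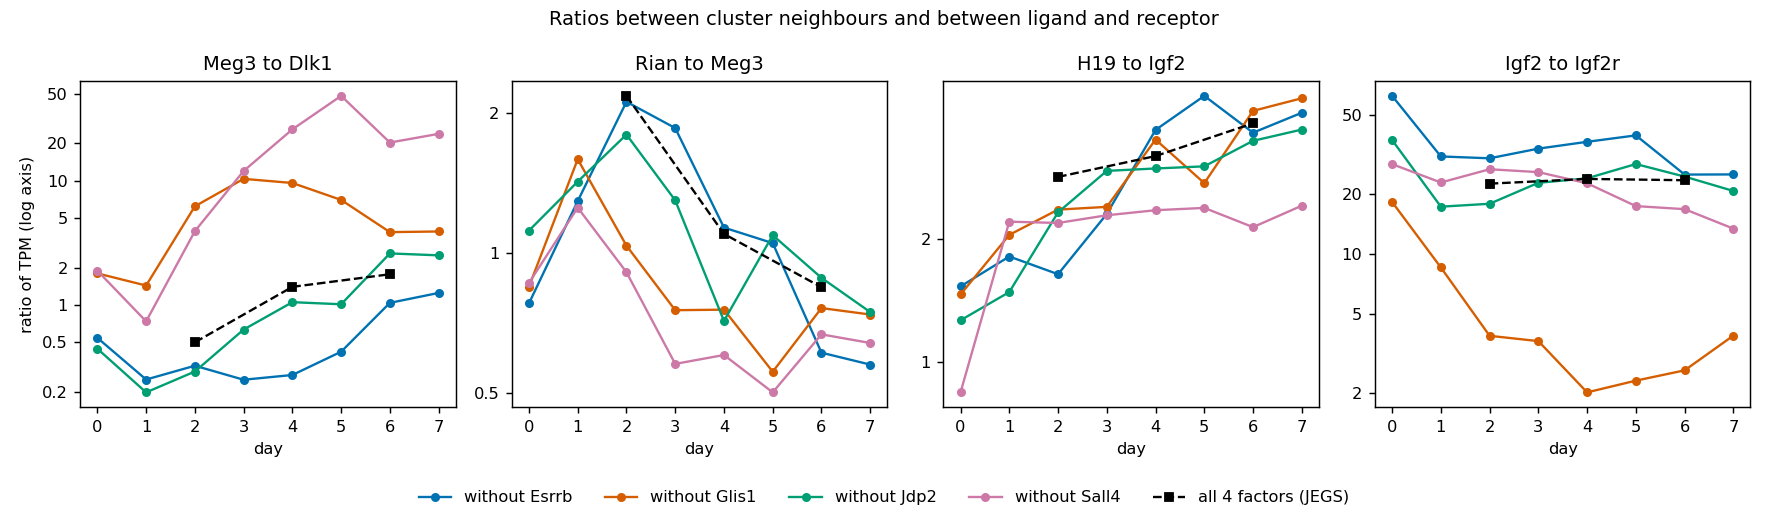
Ratios of TPM (vertical log axis) by day, 1 point per library, for Meg3 to Dlk1, Rian to Meg3, H19 to Igf2 and Igf2 to Igf2r. The Meg3 to Dlk1 ratio reached 48.4 without Sall4, and the Igf2 to Igf2r ratio fell to 2.01 without Glis1.

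Dlk1 encodes a transmembrane protein of the Notch ligand type that holds preadipocytes and other progenitors undifferentiated. Its median level was highest without Esrrb and lowest without Sall4. It was 197, 329 and 657 TPM (lowest, median and highest) without Esrrb, 91.7, 125 and 661 without Jdp2, 32.1, 41.9 and 243 without Glis1, and 3.89, 10.7 and 180 without Sall4. All 6 pairs of arms differed. The widest pair, without Esrrb over without Sall4, had a log2 value of 3.97 ± 0.35, or 15.6-fold (adjusted p = 5.63e-10, edgeR), in a comparison with 6 members and 47% of all genes called. The arm without Jdp2 was 7.10-fold above the arm without Sall4 (log2 2.83 ± 0.34), where 5 members and 35.2% of all genes were called. The narrowest pair was without Esrrb over without Jdp2 (1.14 ± 0.30, adjusted p = 0.00637).

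Dlk1 without Sall4 was 180 TPM on day 0 and 56.9, 15.4, 13.9, 7.25, 3.89, 7.47 and 7.04 TPM on days 1 to 7. The slope was -0.74 ± 0.11 log2 per day (adjusted p = 0.000106, edgeR), and -0.57 over days 1 to 7. Without Esrrb the direction turned with the days used: the slope over all days was -0.05 and over days 1 to 7 it was 0.19 (adjusted p = 0.0139). In that arm slopes were called for 3 members and 19.2% of all genes. Slopes of Dlk1 differed between arms (adjusted p = 0.0112), a call lost without the day 0 library of the arm without Sall4 (adjusted p = 0.146) and kept over days 1 to 7 in all arms (adjusted p = 1.5e-05).

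Meg3 and Rian are maternally expressed noncoding RNAs from the same cluster as Dlk1, and Meg3 is known as a growth suppressor. By the median they were highest without Glis1, so their order was not that of Dlk1. Meg3 was 99.5, 291 and 435 TPM (lowest, median and highest) without Glis1, 49.2, 113 and 477 without Esrrb, 30.2, 129 and 356 without Jdp2, and 41.9, 167 and 339 without Sall4. These ranges overlapped on every side, and the order changed with the days. On days 6 and 7 Meg3 was 151 and 164 TPM without Glis1. On those days it was 364 and 477 TPM without Esrrb, and 271 and 356 TPM without Jdp2. The arm without Glis1 was above the arm without Jdp2 by 1.37 ± 0.32 (adjusted p = 0.00109, edgeR) and above the arm without Sall4 by 0.95 ± 0.31 (adjusted p = 0.0168). The latter call was lost without day 2 or day 3 of the arm without Glis1 (adjusted p = 0.0663 and 0.0705). The arm without Esrrb was below the arm without Glis1 by -1.04 ± 0.31 (adjusted p = 0.00815). No Meg3 difference among the other 3 arms passed (log2 values from -0.42 to 0.33).

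Rian was 115, 201 and 369 TPM without Glis1, 63.6, 148 and 278 without Esrrb, 54.3, 115 and 328 without Jdp2, and 52.5, 99.0 and 293 without Sall4. It was higher without Glis1 than without Sall4 (log2 1.08 ± 0.26, adjusted p = 0.00209, edgeR). Its differences from the arms without Jdp2 (0.77 ± 0.27) and Esrrb (-0.73 ± 0.27 for that arm over the arm without Glis1) passed with adjusted p of 0.0248 and 0.0276, and were lost without any 1 of 7 and 9 libraries. On days 6 and 7 Rian was 115 and 121 TPM without Glis1. On those days it was 223 and 275 TPM without Esrrb, and 240 and 265 TPM without Jdp2.

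Meg3 and Rian tracked each other in time. Their r over the 32 libraries was 0.877, and within arms it ran from 0.803 to 0.949. Dlk1 and Meg3 had r = -0.03. The median ratio of Meg3 to Dlk1 in TPM was 0.371 without Esrrb and 0.821 without Jdp2, against 5.07 without Glis1 and 16.2 without Sall4. Mirg, a noncoding RNA further along the cluster at 0 to 23.1 CPM, was among the 3 genes most like Meg3 (r = 0.811) and most like Rian (r = 0.847).

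**Figure D3:**
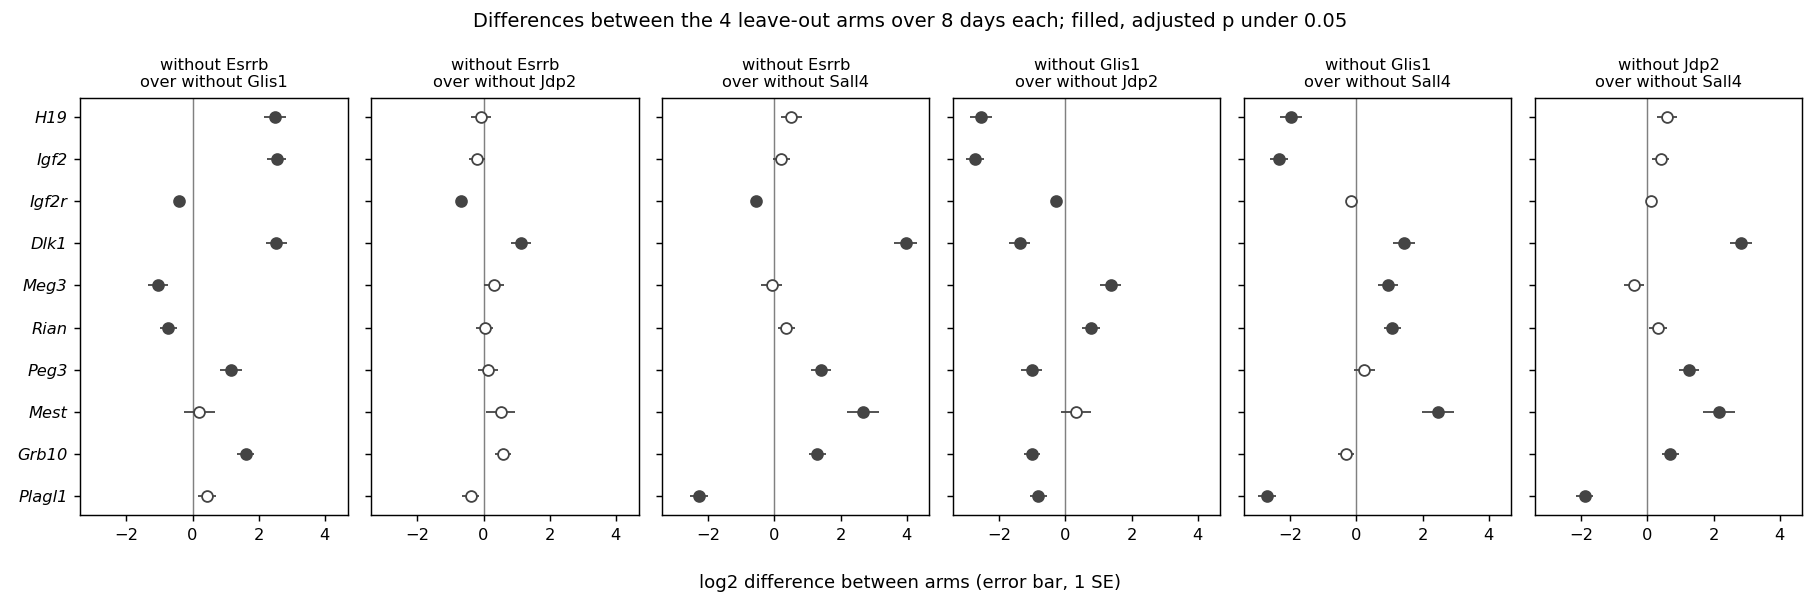
Log2 differences between pairs of leave-out arms (horizontal axis) for each gene, with 1 SE as the bar, from the fit of 32 libraries. Filled points had an adjusted p under 0.05: 8, 2, 6, 9, 7 and 5 of the 10 genes from left to right.

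Plagl1, a zinc finger transcription factor also called Zac1, was highest without Sall4 in all 3 of that arm's comparisons. It was 96.2 TPM there on day 0 and 139 to 209 TPM from day 1 on. The lowest, median and highest values were 11.2, 51.4 and 82.1 TPM without Esrrb, 17.9, 24.9 and 49.8 without Glis1, and 27.3, 63.6 and 91.8 without Jdp2. Each library without Sall4 was above every library of the other leave-out arms. The log2 differences of the arms without Esrrb, Glis1 and Jdp2 from it were -2.28 ± 0.26, -2.72 ± 0.27 and -1.90 ± 0.26, with adjusted p of 5.16e-08, 7.7e-09 and 1.88e-06 (edgeR). By Pearson's r, Sall4 itself was the gene most opposite to Plagl1 (r = -0.885 over 32 libraries, among 11091 genes), a value named after it was seen. Sall4 is the factor that this arm lacks, so this r is not separate from the arm difference. By rho, Sall4 (-0.769) was less opposite than Sema3f (-0.824) and Pde4a (-0.83).

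Plagl1 also rose without Esrrb, from 11.2 TPM on day 0 to 82.1 on day 7 (slope 0.26 ± 0.07 log2 per day, adjusted p = 0.00685, edgeR). Without that arm's day 0 library the slope was 0.23 (adjusted p = 0.0565), and over days 1 to 7 in all arms it was 0.24 (adjusted p = 0.0104). The arm without Glis1 was below the arm without Jdp2 (-0.82 ± 0.26, adjusted p = 0.0157), which was lost without the day 4 library of the arm without Glis1 (adjusted p = 0.054).

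Mest, a paternally expressed gene for a hydrolase of mesodermal tissue, was lowest without Sall4. In CPM, its lowest, median and highest values there were 15.5, 20.04 and 35.7, against 43.2, 108 and 362 without Esrrb, 51.4, 93.3 and 546 without Glis1, and 39.5, 80.3 and 359 without Jdp2. No library without Sall4 reached the lowest value of another leave-out arm. The log2 differences from it were 2.68 ± 0.49, 2.47 ± 0.48 and 2.16 ± 0.48 for the arms without Esrrb, Glis1 and Jdp2 (adjusted p = 4.31e-05, 0.000194 and 0.000823, edgeR). The other 3 pairs did not pass.

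Mest rose with time without Esrrb (0.38 ± 0.11 log2 per day, adjusted p = 0.00974, edgeR), from 44.9 TPM on day 0 to 416 on day 6 and 157 on day 7. It also rose without Jdp2 (0.34 ± 0.09, adjusted p = 0.0102), from 56.0 to 303 TPM, the only slope called among the 10 genes in that arm, where 9.68% of all genes were called. The first call was lost without the day 6 library of its arm (0.33, adjusted p = 0.059). The second was lost without the day 7 library of its arm (0.25, adjusted p = 0.165). Over days 1 to 7 both passed, at 0.46 and 0.58. Without Glis1 it went from 583 TPM on day 0 to 35.7 on day 6. That slope of -0.36 became -0.16 without the day 0 library of that arm (adjusted p = 0.509). Over days 1 to 7 in all arms it was also -0.16 (adjusted p = 0.26). The transcript length assigned to Mest by the authors' estimation ran from 838.5 to 2574 bases between libraries, a 3.07-fold range, so its TPM depends on which transcript received the reads. The gene shares 912 exon bases with Copg2 on the opposite strand, at 8.6 to 28.9 TPM, and the strand setting is not given in the sources used here.

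Grb10 encodes an adaptor that binds the insulin and IGF receptors and dampens their signal. It was 140.5, 211 and 320.2 TPM (lowest, median and highest) without Esrrb, 98.5, 129 and 343 without Jdp2, 50.4, 72.2 and 253 without Sall4, and 30.7, 45.3 and 399.6 without Glis1. The log2 value of the arm without Esrrb was 1.61 ± 0.26 over that without Glis1 and 1.29 ± 0.25 over that without Sall4 (adjusted p = 9.89e-06 and 0.000102, edgeR). The arm without Glis1 was below the arm without Jdp2 by -1.02 ± 0.25 (adjusted p = 0.0022). The difference of 0.69 ± 0.25 between the arms without Jdp2 and Sall4 (adjusted p = 0.0288) was lost without any 1 of 6 libraries. Neighbours in this order that did not differ by the test were the arms without Esrrb and Jdp2 (adjusted p = 0.0828) and those without Glis1 and Sall4 (adjusted p = 0.352).

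Without Glis1, Grb10 was 399.6 TPM on day 0, the highest of the 35 libraries, and 78.6, 62.9, 47.5, 43.2, 30.7, 40.0 and 33.2 TPM on days 1 to 7. The slope of -0.42 ± 0.07 log2 per day (adjusted p = 0.000278, edgeR) was -0.20 without that library, and then did not pass (adjusted p = 0.207). With day 0 left out of all 4 arms it was also -0.20 and passed (adjusted p = 0.000197). The call of -0.23 without Sall4 (adjusted p = 0.0473) was lost without any 1 of 20 libraries. Without Jdp2 the slope was -0.08 over all days and turned to 0.12 over days 1 to 7 (adjusted p = 0.00973).

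Peg3 encodes a large zinc finger protein of the paternally expressed set. It was 26.9, 42.1 and 131 TPM (lowest, median and highest) without Esrrb, 17.0, 52.5 and 93.6 without Jdp2, 8.30, 19.5 and 28.9 without Sall4, and 8.17, 14.4 and 128 without Glis1, where the 128 was day 0. It was higher without Esrrb and without Jdp2 than without Sall4 (log2 1.41 ± 0.31 and 1.26 ± 0.31, adjusted p = 0.000455 and 0.00188, edgeR). The arm without Esrrb was above the arm without Glis1 by 1.17 ± 0.32, and the log2 value of the arm without Glis1 over that without Jdp2 was -1.03 ± 0.32. The pairs Esrrb with Jdp2, and Glis1 with Sall4, did not differ by the test (adjusted p = 0.791 and 0.622). Its slope without Esrrb was 0.32 ± 0.11 log2 per day (adjusted p = 0.0394), lost without any 1 of 5 libraries, and it was 0.41 over days 1 to 7 (adjusted p = 9.36e-06).

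Between day 0 and day 1, 5 of the 10 genes fell and 1 rose. This comparison was chosen after the values had been seen. It called 6 members against 13.9% of all genes, and the median log2 value was -1.49 over the members and 0.04 over all genes. Day 0 was the highest library of its arm for Dlk1 in all 4 leave-out arms.

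**Figure D4:**
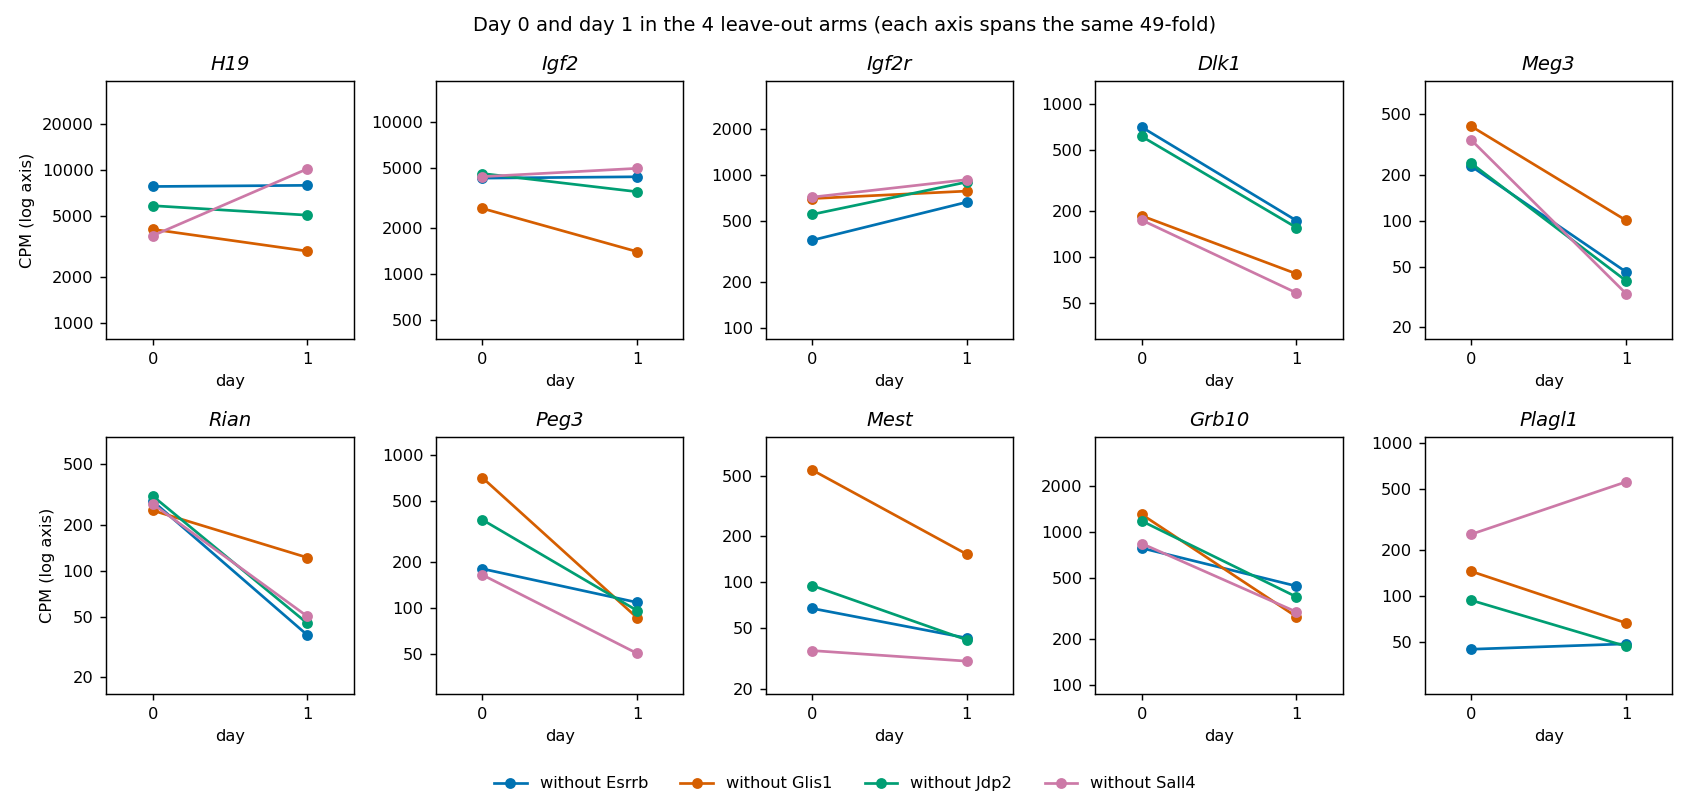
CPM (vertical log axis) on day 0 and day 1 in the 4 leave-out arms, 1 line per arm, with the same fold span on every axis. Meg3, Rian, Dlk1, Peg3 and Grb10 slope down in all 4 arms, as does Mest, whose change was not called, and H19 and Igf2 do not.

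Meg3 was 356, 435, 293 and 339 TPM on day 0 in the arms without Esrrb, Glis1, Jdp2 and Sall4, and 49.2, 99.5, 43.2 and 41.9 TPM on day 1. Every day 1 value was below every day 0 value. The drop was 5.85-fold in the fit (log2 -2.55 ± 0.46, adjusted p = 0.000244, edgeR). In the same order, Rian was 278, 369, 328 and 293 TPM on day 0 and 63.7, 158, 61.5 and 52.5 on day 1 (-2.30 ± 0.39, adjusted p = 0.000112). Mirg from the same cluster fell as well (-3.49 ± 0.63, adjusted p = 0.000246).

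Peg3 was 26.9, 128, 64.5 and 28.9 TPM on day 0 and 29.2, 14.2, 17.0 and 8.30 on day 1 in that order of arms. Its fall (-2.28 ± 0.46, adjusted p = 0.000796, edgeR) was visible in CPM in all 4 arms, although the arm without Esrrb was level in TPM. The log2 value was -1.72 ± 0.36 for Grb10 and -1.72 ± 0.44 for Dlk1 (adjusted p = 0.00113 and 0.0084). Dlk1 was 657, 243, 661 and 180 TPM on day 0 and 197, 69.5, 219 and 56.9 on day 1. Its call was lost without the day 0 library of the arm without Sall4 (-1.12, adjusted p = 0.104).

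Igf2r was the member that rose from day 0 to day 1 (log2 0.50 ± 0.15, adjusted p = 0.025, edgeR), a call lost without any 1 of 4 libraries. H19 (0.08 ± 0.43), Igf2 (-0.44 ± 0.36), Mest (-1.25 ± 0.64) and Plagl1 (-0.29 ± 0.37) did not pass. Over the same day, 8 of the 14 fibroblast markers fell and none rose. The summed skeletal muscle markers were 54.8 to 186 CPM on day 0 and 9.98 to 40.5 on day 1, but only 1 of the 8 tested was called, lower, and their median log2 value was 0.18. The part of these cell type markers in the falls was not tested.

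Meg3 rose again after day 1 in 3 arms and Rian in 2, by their slopes over days 1 to 7. Meg3 without Esrrb was 72.9 TPM on day 2, 129 on day 5 and 477 on day 7, and without Jdp2 it was 30.2, 120 and 356 TPM on those days. Over days 1 to 7 these slopes were 0.55 and 0.56 log2 per day (adjusted p = 3.47e-05 and 4.97e-05, edgeR), and those of Rian were 0.34 and 0.38. Without Sall4 the slope of Meg3 was 0.34 (adjusted p = 0.0455). Over all 8 days, with the high day 0, none of these slopes passed. Without Glis1, day 2 was already at 288 TPM of Meg3 and 299 of Rian, and the last day was 164 and 121 TPM.

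Meg3 and Peg3, which both fell on day 1, are, of the 9 members with a RefSeq promoter entry, those whose windows hold a cyclic AMP response element (CRE, TGACGTCA, the same on both strands). Factors of the CREB and AP-1 families, Jdp2 among them, are known to bind it. The 250 bases before each start are shown on the strand of the gene, with the CRE in capitals. Meg3 is at chr12:109540746-109540995 and Peg3 at chr7:6730420-6730669 on the minus strand, in GRCm38.p6, and the element begins at -57 in Meg3 and at -178 in Peg3.
Meg3 promoter: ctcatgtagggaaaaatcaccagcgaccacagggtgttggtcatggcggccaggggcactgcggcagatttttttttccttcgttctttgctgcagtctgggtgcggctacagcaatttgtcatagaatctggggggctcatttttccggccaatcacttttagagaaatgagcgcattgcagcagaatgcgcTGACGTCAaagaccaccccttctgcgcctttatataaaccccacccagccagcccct
Peg3 promoter: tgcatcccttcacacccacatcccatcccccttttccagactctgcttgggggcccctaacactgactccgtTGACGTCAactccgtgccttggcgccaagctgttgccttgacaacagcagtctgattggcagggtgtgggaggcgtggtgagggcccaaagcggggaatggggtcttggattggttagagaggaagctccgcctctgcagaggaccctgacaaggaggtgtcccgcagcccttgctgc

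H19 has no entry in the promoter table and was not searched. The CRE was in 2 of the 16 promoter windows of the other 9 genes, from 250 bases before to 50 after a start, and in 1.79% of all 32851 such windows. No member window held the AP-1 site (TGACTCA, in 5.20% of all), the extended Esrrb site (TCAAGGTCA, in 0.423%), the Gli and Glis box (GACCACCCA, in 0.253%) or the Plagl1 site (in 0.085%), searched on both strands. Rian, Dlk1 and Grb10 fell between day 0 and day 1 and had no CRE in their windows. No binding was measured, so these matches describe letters only.

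With all 4 factors, H19 and Igf2 were well above the arm without Glis1, and no difference of either from the other 3 arms passed (adjusted p from 0.232 to 0.837). H19 was 9225, 7629 and 6543 TPM on days 2, 4 and 6 and Igf2 was 3253, 2391 and 1705 TPM. Matched for day, JEGS was above the arm without Glis1 by 2.81 ± 0.30 for H19 and 2.83 ± 0.21 for Igf2 (adjusted p = 1.34e-05 and 8.65e-07, edgeR), on all 3 days. That comparison called 6 members and 19.9% of all genes, 5 of the members higher in JEGS. Plagl1 (2.14 ± 0.25) and Grb10 (1.24 ± 0.21) were also higher, while Meg3 was lower (-1.64 ± 0.45, adjusted p = 0.0175). Meg3 was lower on days 2 and 4 only. On day 6 it was 218 TPM in JEGS and 151 TPM without Glis1. The calls of Meg3 and Peg3 (1.001 ± 0.28) were each lost without any 1 of 4 libraries.

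Against the arm without Sall4, JEGS had more Dlk1 (2.99 ± 0.34), Mest (2.98 ± 0.52) and Grb10 (0.73 ± 0.21) and less Plagl1 (-1.01 ± 0.23, adjusted p = 0.00526, edgeR), with 4 members and 23.8% of all genes called. Dlk1 was 83.0, 66.3 and 124 TPM in JEGS on days 2, 4 and 6, and 15.4, 7.25 and 7.47 TPM without Sall4. Plagl1 in JEGS was 153, 124 and 58.1 TPM, below the 184, 201 and 183 TPM without Sall4 on each of those days. The call of Grb10 was lost without any 1 of 5 libraries.

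JEGS had less Dlk1 than the arm without Esrrb (-1.66 ± 0.29, adjusted p = 0.00281, edgeR) and more Plagl1 (1.35 ± 0.24, adjusted p = 0.00316). Dlk1 without Esrrb was 226, 360.0 and 351 TPM on those days. Peg3 was lower (-0.95 ± 0.27, adjusted p = 0.048), which was lost without any 1 of 10 libraries. That comparison called 3 members and 6.63% of all genes. Against the arm without Jdp2, edgeR called none of the 10 genes and 2.82% of all genes. At an unadjusted p under 0.05 the count there was 4, DESeq2 and limma also called 0, and without the filter on low counts edgeR called 6.

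Several neighbours of H19 and Igf2 on chromosome 7 were also low without Glis1. Among the 34 listed neighbours of all the members' clusters 25 were tested. Of these, 17 passed the test over the arms, where 62.9% of all genes passed. For the arm without Esrrb over that without Glis1, 12 were higher and 1 lower, and for the arm without Glis1 over that without Jdp2, 1 was higher and 10 lower, where 43.2% and 35.2% of all genes were called. Igf2os, the antisense transcript of Igf2, was 1.71 to 13.5 CPM without Glis1 and at medians of 225, 97.4 and 65.2 CPM without Esrrb, Jdp2 and Sall4. It shares 98 exon bases with Igf2 on the other strand, so reads could be split between them. Ins2, an insulin gene next to Igf2, was 0 to 0.96 CPM without Glis1, with medians of 183, 28.8 and 41.8 CPM in the other arms. Th, for tyrosine hydroxylase, was 0 to 0.6 CPM without Glis1 and had medians of 57.2, 4.73 and 9.76 CPM. Single libraries of other arms were also at 0 CPM, for Ins2 without Sall4 and for Th in every leave-out arm. Tnnt3, a troponin gene beyond H19, had a different order: its median was 3.92 CPM without Glis1 and 1.58 without Esrrb, which did not differ by the test (adjusted p = 0.178), against 33.2 and 39.8 CPM without Jdp2 and Sall4.

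Cdkn1c, an imprinted inhibitor of the cell cycle further along that chromosome, was 38.0 to 85.0 CPM without Glis1. Its medians were 1511, 690.3 and 1745 CPM without Esrrb, Jdp2 and Sall4. The lowest library was at 243 CPM without Esrrb. Without Jdp2 and Sall4 the lowest, at 48.4 and 68.6 CPM, lay within the range without Glis1. The arm without Glis1 differed from each (log2 values 4.20 ± 0.49 for the arm without Esrrb over it, and -3.07 ± 0.48 and -4.54 ± 0.50 for it over those without Jdp2 and Sall4). Phlda2, for a growth-restraining placental protein, did not differ in those pairs (0 to 21.3 CPM over all libraries), and Kcnq1ot1 was lower without Glis1 than without Esrrb and Sall4 by the test (0.56 ± 0.20 for the arm without Esrrb over it, -1.26 ± 0.20 for it over that without Sall4).

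**Figure D5:**
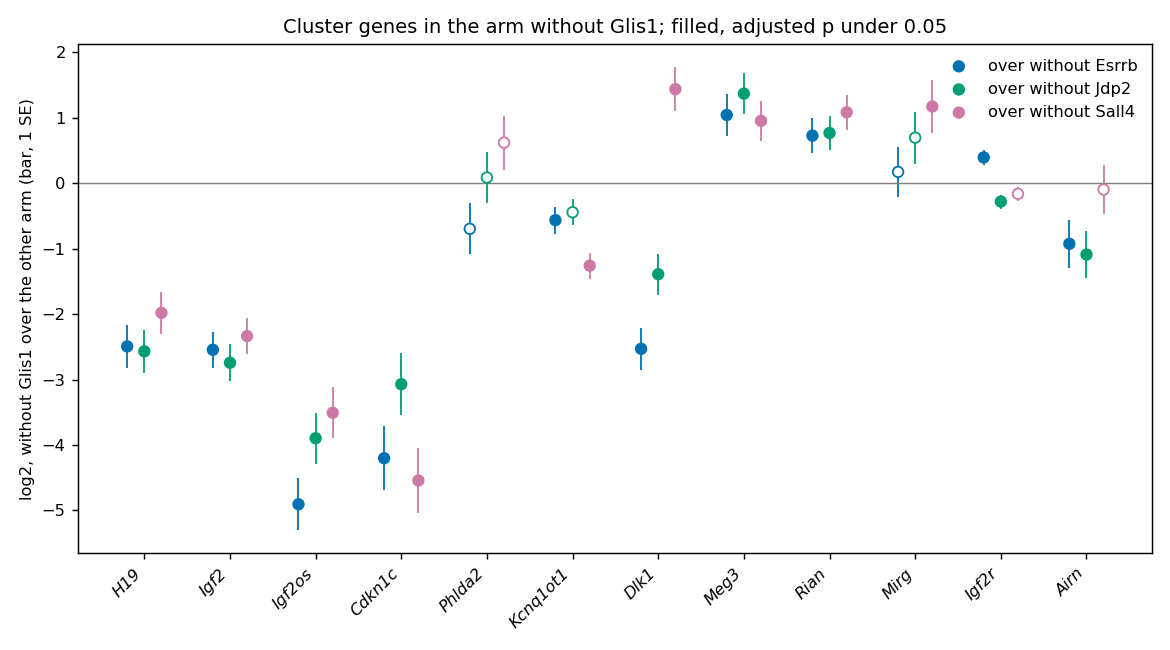
Log2 difference of the arm without Glis1 over each other leave-out arm (vertical axis, bar 1 SE) for chosen genes of the clusters around H19, Dlk1 and Igf2r. Genes at a median of 0 CPM in an arm are left out. Tnnt3, Begain and Wdr25, with medians above 0 CPM in every leave-out arm, were not among the chosen genes. Igf2os and Cdkn1c lie further below 0 than H19 and Igf2, while Meg3 and Rian lie above 0.

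Airn, the antisense noncoding RNA that silences Igf2r in cis, was 1.6 to 32.01 CPM. It was lower without Glis1 than without Jdp2 (-1.09 ± 0.36, adjusted p = 0.0181, edgeR), where Igf2r was lower too by -0.28. In the Dlk1 cluster, Dio3 was at most 13.8 CPM and Rtl1 did not pass over the arms (adjusted p = 0.14). Beside Peg3, Zim1 fell from day 0 to day 1 (-2.64 ± 0.79, adjusted p = 0.0222) and Usp29 passed over the arms (adjusted p = 0.0206). Copg2, on the other strand of Mest, showed no difference over the arms (adjusted p = 0.984).

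Of 37 other imprinted genes listed, 3 of them also among the neighbours, 35 were tested and 24 passed over the arms, where 62.9% of all genes passed. Nnat, for a small membrane protein of the endoplasmic reticulum, was 3.85 to 34.5 CPM without Glis1. Its medians were 276 and 278 CPM without Esrrb and Jdp2. The lowest libraries of those arms, at 20.3 and 18.6 CPM, lay within the range without Glis1. Nnat was low without Sall4 too, at 14.4 to 57.9 CPM with a median of 39.7, and that range also overlapped the range without Glis1. Ampd3, for an AMP deaminase, was lowest without Esrrb (-3.47 ± 0.43 over the arm without Sall4).

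All 23 genes listed for the IGF pathway passed over the arms, where 62.9% of all genes passed. For the arm without Glis1 over that without Jdp2, 6 were higher and 12 lower, where 35.2% of all genes were called. For the arm without Esrrb over that without Glis1, 8 were higher and 8 lower, where 43.2% of all genes were called. Igfbp2, a binding protein that holds IGFs outside the cell, was highest without Glis1, at a median of 927 CPM without Glis1 and 171, 173 and 38.8 CPM without Esrrb, Jdp2 and Sall4. Stc1, an inhibitor of the protease that frees IGF from its binding proteins, was lower without Glis1 than without Jdp2 (-4.48 ± 0.38). Igfbp7 was lowest without Esrrb (-4.46 ± 0.47 over the arm without Sall4). Igf1r, the signalling receptor of both IGFs, is named here after its values were seen: it was 222 to 303 CPM without Sall4 and lower in the arm without Glis1 by -1.78 ± 0.11.

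Of 20 tested genes that set or keep imprints, 15 passed over the arms, against 62.9% of all genes. Without Esrrb over without Sall4, 15 were higher and none lower, where 47% of all genes were called. Without Jdp2 over without Sall4, 12 were higher and none lower, where 35.2% were called. Dnmt3b, a de novo DNA methyltransferase, was higher without Esrrb than without Sall4 (3.49 ± 0.33), as was Uhrf1, which brings Dnmt1 to copied DNA (2.64 ± 0.23). Of 9 genes of proliferation and growth arrest all passed. Top2a, a topoisomerase of dividing cells, was higher without Esrrb than without Glis1 and Sall4 (2.23 ± 0.32 and 2.86 ± 0.33), and Cdkn2b, a cell cycle inhibitor, was lower (-2.43 ± 0.26 and -1.97 ± 0.26).

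The gene whose pattern over the 32 leave-out libraries was most like each member was named by Pearson's r on log2(CPM + 1), among 11091 genes. For Dlk1 these were Ncapd2 (r = 0.959), Ncaph (0.955) and Trim59 (0.953), the first 2 being condensin subunits. H19 was most like Gpc3 (0.922), a cell surface glypican, and its r with Igf2os was 0.886. For Igf2 they were Emilin1 (0.940), Edn1 (0.931) and Mmp17 (0.930). For Grb10 they were Rcn3 (0.939), Smo (0.915) and Chsy1 (0.904). Plagl1 was most like Krt83 (0.899), Peg3 most like Tro (0.864), Rian most like Ddah2 (0.855), Mest most like Stmn1 (0.850), Meg3 most like Mtus1 (0.836) and Igf2r most like Nfat5 (0.822). These values describe libraries that share arms and days.

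The 10 genes did not move as 1 block. Of the 45 pairs among them 28 had r above 0, with a median of 0.277, and 50.1% of all gene pairs had r above 0, with a median of 0.001. After H19 with Igf2 and Meg3 with Rian, a high value across clusters was Dlk1 with Grb10, at r = 0.752 and rho = 0.885, and 0.661 to 0.969 within arms. Plagl1 and Dlk1 had r = -0.570.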

How the data were processed

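RNA-seq of 35 libraries of mouse fibroblasts was analysed from 1 gene table per library. Per the submitters' processing notes, bcl2fastq, Bowtie2 and RSEM were used with mm10, and the versions, annotation release and strand setting are not given in the sources used here. Per the file headers, the authors deposited estimated counts (expected counts), TPM, FPKM and transcript lengths for each gene. The expected counts were rounded to whole numbers for the tests, TPM was used for levels between genes, and the authors' FPKM entered no test. Of 54752 identifiers, 54723 were matched to a symbol.

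Genes with at least 1 CPM in at least 3 libraries were kept. edgeR 4.0.16 in R 4.3.3 was fitted with TMM scaling and the quasi-likelihood test, with arm and day as terms over the 32 leave-out libraries. A fit of days 2, 4 and 6 served JEGS, and a separate fit gave slopes by arm. A call is a Benjamini-Hochberg adjusted p under 0.05 over all genes tested in that comparison, and an error is 1 standard error. The 2 library kits named in the labels are not tied to samples, so no batch term or within-batch value was possible. The test over the arms, a pair of arms, a slope and the slope differences were tried on simulated counts of independent libraries. The JEGS comparisons and day 1 over day 0 were not.

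Alternatives were DESeq2 1.42.0 (test and size factors), limma 3.58.1 on log2(TPM + 1) and log2(TPM + 0.1), no filter, no day term, other sets of days, log2(day + 1), all libraries, and fits that dropped 1 library or 1 day at a time. The 10 genes and all gene lists were chosen with earlier results of these data known. All 10 genes are named throughout. From each list up to 3 genes with the widest range between arms, among those passing with a mean of at least 5 CPM, are named, and any measured cluster neighbour. The 3 genes with the highest Pearson r to each member, among genes with a mean of at least 5 CPM, were found and at least the first is named.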

Additional observations from a re-analysis of the deposited data

Results flagged for a closer look

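Of 40 groups of 8 libraries, 1 for each gene and leave-out arm, 13 had a library far from the rest by Dixon's criterion at a critical value of 0.526. The gaps were taken on CPM and not on a log scale, which gives more weight to high values. Chance flags about 1 in 20 groups of independent libraries. The 8 libraries here are successive days of 1 series, so that rate does not apply directly. In 12 of the 13 groups the library that stood apart was the highest, on day 0. Without Glis1, day 0 stood apart at 2697.67 CPM for Igf2, 185.86 for Dlk1, 711.39 for Peg3, 545.75 for Mest, 1306.93 for Grb10 and 144.94 for Plagl1. Dlk1 stood apart on day 0 in the other arms too, at 708.24 CPM without Esrrb, 615.51 without Jdp2 and 174.18 without Sall4. Grb10 did so at 1183.33 CPM without Jdp2 and 842.44 without Sall4, and Rian at 274.11 CPM without Sall4. The exception was Igf2 without Jdp2, whose lowest library, day 1, was at 3469.94 CPM.

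Slopes with day differed between the 4 leave-out arms for 7 genes in edgeR's test of the difference. The adjusted p was 0.0069 for H19, 0.000536 for Igf2, 0.0112 for Dlk1, 0.0441 for Peg3, 0.000449 for Mest, 0.00745 for Grb10 and 0.031 for Plagl1. The call of Peg3 was lost without any 1 of 15 libraries and that of Plagl1 without any 1 of 4.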

How the results depend on the processing

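The differences of H19 and Igf2 between the arm without Glis1 and each other arm passed under every alternative run. Over all 10 genes and 17 comparisons, 6879 of 7280 alternative values kept their side of the threshold with no called value reversed. Values that passed in neither fit could change sign and still count among the 6879. Mest for Glis1 over Jdp2, for example, ran from -0.93 to 0.77. Another 286 values lost a call, 111 gained one, and 4 reversed sign with a call in either fit. The 4 were the slopes of Dlk1 without Esrrb (0.19) and of Grb10 without Jdp2 (0.12), each without day 0 and over days 1 to 7, and the cause was not tested. No paired analysis was possible because the labels give days and no replicate numbers, and day is already a term of the fit.

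Counts of the 10 genes called moved as follows, and the cause was not tested. Without Esrrb over without Glis1 it was 5 with limma at either pseudocount and with no day term. With no day term it was also 1 for Esrrb over Jdp2, 3 for Glis1 over Jdp2 and 4 for Glis1 over Sall4. Without day 4 it was 5 for Glis1 over Jdp2, and for JEGS 0 over the arm without Esrrb, 3 over that without Glis1 and 2 over that without Sall4. JEGS over the arm without Esrrb gave 1 without day 2, JEGS over the arm without Jdp2 gave 6 with no filter and 1 without day 6, and JEGS over the arm without Sall4 gave 2 with all 35 libraries. The slope count without Esrrb was 8 without day 0 and over days 1 to 7, and 1 without day 1 or day 6. Without Glis1 it was 2 with limma at either pseudocount. Without Jdp2 it was 6 without day 0 and over days 1 to 7, 3 with log2(day + 1), and 2 with the DESeq2 test, DESeq2 size factors, limma at either pseudocount, all 35 libraries, and without day 2 or day 3. Without Sall4 it was 1 without day 5 or day 6, and slope differences were 4 without day 6.

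Leaving out 1 library gave 10 to 10 genes over the arms, 7 to 9 for Esrrb over Glis1, 2 to 3 for Esrrb over Jdp2, 6 to 6 for Esrrb over Sall4, 6 to 9 for Glis1 over Jdp2, 6 to 8 for Glis1 over Sall4, 4 to 5 for Jdp2 over Sall4 and 5 to 6 for day 1 over day 0. For JEGS the ranges were 2 to 3, 4 to 7, 0 to 1 and 3 to 5 against the arms without Esrrb, Glis1, Jdp2 and Sall4. For slopes they were 1 to 4, 1 to 5, 1 to 3 and 1 to 3 in those arms, and 5 to 7 for slope differences.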
